A study of Drosophila melanogaster with 24 samples.

Results

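Late larvae and white prepupae of the Drosophila melanogaster strains Samarkand and Oregon-R were compared stage by stage, with 3 arrays of each strain at each stage and no averaging over stages. These were 12 of the 24 arrays of the study, chosen by their strain and stage labels, and all 16637 transcripts on the arrays were tested. The study measured whole-animal messenger RNA in 4 strains before and at the start of metamorphosis, and its title concerns the evolution of microRNA expression at that time. Oregon-R and Samarkand are wild-type stocks, and no mutation, transgene or treatment was given for any group. The Oregon-R larvae were replicates 2, 3 and 5, as were the Oregon-R prepupae. The Samarkand larvae were replicates 2, 3 and 4, and the Samarkand prepupae were replicates 1, 2 and 3. Each replicate was a pool of many ground animals raised on food dyed with bromophenol blue, which colours the gut until it is emptied. Larvae of all 4 strains carried the same stage label, and so did the prepupae. The label of the larval stage gives a lower bound on the time left before the puparium forms, not a time. Whether males, females or both were taken is not given. RNA of different strains was extracted separately, so a difference between strains cannot be told apart from a difference between extractions. Differences below are differences in array signal. Whether the probes match the sequence of each strain equally well was not tested.

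Insects enter metamorphosis when a pulse of the steroid hormone ecdysone ends larval life. The larva stops feeding, empties its gut, leaves the food and forms the puparium from its outer cuticle. The white prepupa is the animal at the moment the puparium forms. Messages of feeding and growing larval tissues fall over these hours while those of adult tissues being built rise. In whole animals, fewer cells of a type and less RNA per cell cannot be told apart.

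The median intensity of the 12 arrays lay between 2414 and 3169 before scaling, and all values below are log2 intensities after quantile normalization over the 24 arrays. Larval replicates lay closer together than prepupal replicates. The median standard deviation over transcripts was 0.0404 in Oregon-R larvae and 0.0491 in Samarkand larvae, against 0.114 in Oregon-R prepupae and 0.0772 in Samarkand prepupae. The spread used in the tests was shared by both stages. Gene names could be given to 44 transcripts: 16 carried 1 gene and 28 carried reading frames of several genes, and the other 16593 are given by transcript identifier. For 8 of the 16 (SuUR, rdx, Fatp1, CG31178, NaPi-III, HDAC3, fend and CG16974) the name comes from a reading frame that is named after the transcript. Of 23 lists of genes of known roles, 253 genes in all, 6 genes could be found by name, and none of these marks a larval or prepupal stage. The stage labels were therefore not checked on named markers.

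In late larvae, 6722 of 16637 transcripts (40.4%) differed between the strains by limma's test at an adjusted p under 0.05, 3038 of them higher (18.3%) and 3684 lower (22.1%) in Samarkand. Most of these differences were small, and the large ones were mostly in one direction, since a 2-fold difference or more was found for 217 transcripts in favour of Samarkand and for 65 in favour of Oregon-R. In prepupae 3475 transcripts (20.9%) differed, 1764 higher (10.6%) and 1711 lower (10.3%), and a 2-fold difference or more was found for 35 and 40 of them in turn. The 3 values of each strain did not overlap for 11525 transcripts in larvae (69.3%) and for 4750 in prepupae (28.6%). With the transcripts split by mean brightness into 4 bins of about equal size, the share called was 34.9% in larvae and 20.3% in prepupae in the dimmest bin, and 45.3% and 19.5% in the brightest.

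The split of the larval calls depended on the scaling between arrays. Of the larval calls 45.2% were higher in Samarkand after quantile normalization, but 86.9% without any scaling (2372 higher, 358 lower), where the median difference of all transcripts was 0.142. In prepupae the shares were 50.8% and 71.8% (436 higher, 171 lower without scaling), with a median difference of 0.052. Directions below are therefore relative to the bulk of transcripts on each array.

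Sorted by both tests, 2235 transcripts (13.4%) differed at both stages in the same direction, 4332 (26%) passed in larvae only, 1085 (6.52%) passed in prepupae only, 155 (0.932%) differed at both stages in opposite directions, and 8830 passed at neither. Passing at 1 stage does not show that the stages differ. That question was tested by the prepupal minus the larval strain difference, which passed for 1979 transcripts (11.9%), 690 with a positive value (4.15%) and 1289 with a negative value (7.75%). The positive share of these calls was 34.9%, against 20.7% with median centring (338 of 1631 calls) and 12.6% without scaling (50 of 398). The sorting also rested on the shared spread. When each stage was fitted with its own spread, 10320 transcripts passed in larvae and 1429 in prepupae, and 9043 passed in larvae only, 152 in prepupae only and 1213 at both stages. Of the 4332 transcripts sorted into larva only, 4321 stayed there (99.7%), while 148 of the 1085 sorted into prepupa only did (13.6%).

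**Figure D1:**
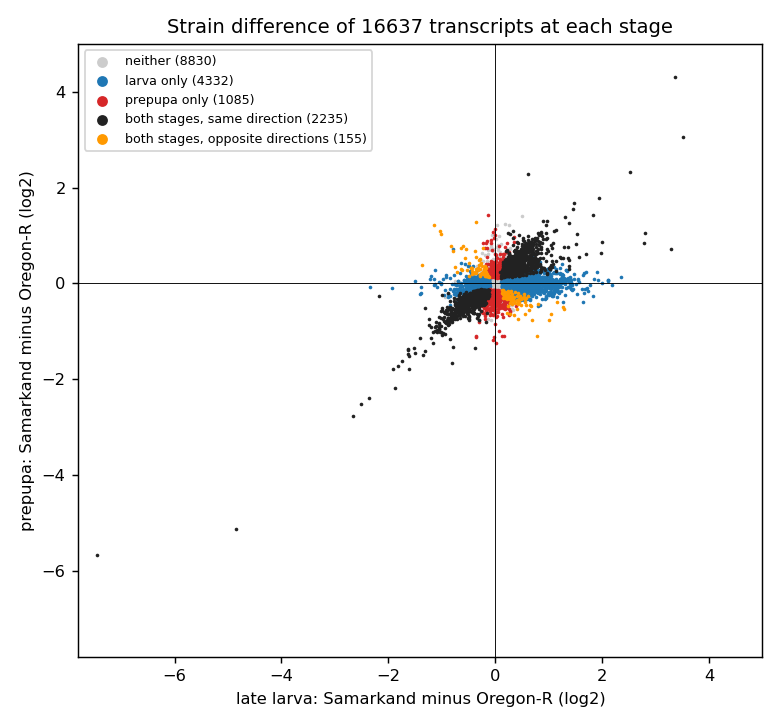
Strain difference of each of 16637 transcripts in late larvae (x axis) and in prepupae (y axis), Samarkand minus Oregon-R in log2 units, 1 point per transcript, coloured by the stages at which it passed limma's test. Transcripts passing at both stages in the same direction lie along the diagonal and those passing in larvae only along the horizontal line at 0. Those passing in opposite directions lie at the upper left and lower right of the centre, and 4 points stand far out, 2 high and 2 low at both stages.

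Transcripts that differed at both stages in the same direction numbered 1048 higher and 1187 lower in Samarkand. The median size of the difference was 0.37 in larvae and 0.33 in prepupae, and the difference was larger in larvae for 1322 of them and larger in prepupae for 913. The test of stage dependence passed for 152 of them, 105 of the higher ones (10%) and 47 of the lower ones (4%), against 11.9% of all transcripts. By direction, it passed for 17.9% of all transcripts higher in Samarkand larvae and for 7.1% of all lower ones. At least 2-fold differences at both stages were found for 13 transcripts higher and 26 lower in Samarkand.

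The strongest loss of signal in Samarkand was that of FBtr0072463. Its log2 intensity was 15.32 on each of the 3 arrays of Oregon-R larvae and 7.86 on each of the 3 arrays of Samarkand larvae. As deposited, these were intensities of 40188 to 41386 against 199 to 215, and the transcript was the 4th dimmest of 16637 on every Samarkand larval array. Equal values after normalization arise because quantile normalization gives a transcript of the same rank the same value on every array. In prepupae the values were 14.17, 13.97 and 14.07 in Oregon-R and 9.30, 7.86 and 8.03 in Samarkand. The groups did not overlap at either stage, and Samarkand prepupa replicate 1 was brighter than the other 2, at a deposited intensity of 825 and a rank of 342. The difference was -7.45 in larvae (175-fold, adjusted p = 1.17e-08 by limma) and -5.67 in prepupae (50.9-fold, adjusted p = 1.7e-07), SE 0.27 for each. The mean was 15.35 in Canton-S larvae, 14.76 in Canton-S prepupae, 15.40 in Zimbabwe-109 larvae and 15.09 in Zimbabwe-109 prepupae, so the signal was high in all 3 other strains. Levels of the other strains are given here and below as group means and were not tested.

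FBtr0072541 was also near the floor in Samarkand. It read 12.75, 12.77 and 12.80 in Oregon-R larvae against 7.93 on all 3 arrays of Samarkand larvae, and 12.76, 13.28 and 12.99 in Oregon-R prepupae against 7.86, 7.93 and 7.86 in Samarkand prepupae. It ranked 4th or 5th from the dimmest on every Samarkand array. The difference was -4.85 in larvae (28.8-fold, adjusted p = 8.91e-11 by limma) and -5.13 in prepupae (34.9-fold, adjusted p = 4.75e-11), SE 0.10. Both other strains had signal, with group means of 11.96 and 12.47 in Canton-S larvae and prepupae and 12.88 and 13.14 in those of Zimbabwe-109. The deposited table gives no call of detection per array, so a fold against a value near the floor is a ratio of intensities and does not measure the size of a loss.

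The 2 largest excesses in Samarkand were low values of Oregon-R. FBtr0084287 read 7.68, 7.68 and 7.57 in Oregon-R larvae and 7.68, 7.76 and 7.68 in Oregon-R prepupae, where it ranked between the dimmest and the 3rd dimmest transcript. In Samarkand it read 11.00, 11.02 and 11.00 in larvae and between 11.89 and 12.15 in prepupae (mean 12.01). The difference was 3.36 in larvae (10.3-fold, adjusted p = 8.91e-11 by limma) and 4.30 in prepupae (19.8-fold, adjusted p = 6.52e-12), SE 0.06, and it was larger in prepupae by 0.94 ± 0.09 (SE, adjusted p = 0.00012), on values of which the Oregon-R ones lie at the floor. Canton-S at 11.32 and 11.55 and Zimbabwe-109 at 11.08 and 11.43, larvae and prepupae in turn, were close to Samarkand.

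FBtr0112473 read 9.29, 9.15 and 9.40 in Oregon-R larvae and 12.74, 12.82 and 12.81 in Samarkand larvae. In prepupae it read 9.29, 10.06 and 9.47 in Oregon-R and 12.49, 12.83 and 12.67 in Samarkand. No values overlapped, and the difference was 3.51 in larvae (11.4-fold, adjusted p = 7.85e-08 by limma) and 3.06 in prepupae (8.35-fold, adjusted p = 2.9e-07), SE 0.16. Canton-S (12.66 and 12.26) and Zimbabwe-109 (12.97 and 12.96) again lay with Samarkand.

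Among all 39 transcripts that differed at least 2-fold at both stages, the means of Canton-S and Zimbabwe-109 lay nearer to Samarkand in all 4 strain-by-stage groups for 5 and nearer to Oregon-R in all 4 for 13, and were mixed for 21. Of the 26 that were lower in Samarkand, 11 had both other strains nearer to Oregon-R throughout, and of the 13 that were higher, 2 did. Over all 2235 transcripts that differed at both stages, the other strains lay nearer to Samarkand throughout for 443 and nearer to Oregon-R throughout for 368.

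**Figure D2:**
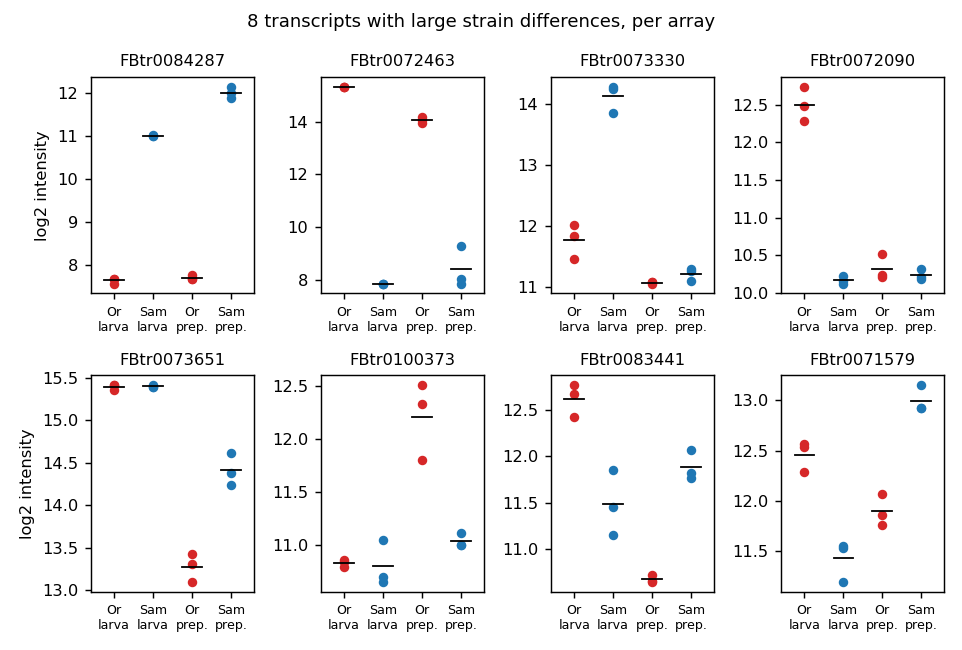
Log2 intensity on each of the 12 arrays for 8 transcripts named by identifier, 1 panel each, with Oregon-R in red and Samarkand in blue; points are arrays (3 per group) and the bar is the group mean. FBtr0084287 and FBtr0072463 differ at both stages, FBtr0073330 and FBtr0072090 in larvae, FBtr0073651 and FBtr0100373 in prepupae, and FBtr0083441 and FBtr0071579 change the direction of the difference between the stages.

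Of the 16 transcripts with 1 gene name, 8 differed in larvae (4 higher and 4 lower in Samarkand) and 3 in prepupae (2 higher, 1 lower), against 40.4% and 20.9% of all transcripts. The 3 that differed in prepupae, SuUR, LanA and sle, differed in the same direction in larvae. The other 5 passed in larvae only (26% of all transcripts), none passed in prepupae only (6.52%), and 8 passed at neither stage. Of the 4 named members of a list of chromatin genes (HDAC3, His4r, SuUR and kis), SuUR was higher and His4r lower in Samarkand larvae. Neither of the 2 named members of a list of insulin and growth genes, Wdr24 and mio, differed at either stage.

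SuUR encodes a chromatin protein that keeps parts of the giant polytene chromosomes of larval tissues from being fully replicated. Its log2 intensity was 12.16, 12.11 and 12.11 in Oregon-R larvae and 12.57, 12.65 and 12.50 in Samarkand larvae. In prepupae it was 12.12, 12.09 and 12.17 in Oregon-R and 12.73, 12.60 and 12.77 in Samarkand. Every Samarkand array lay above every Oregon-R array. The difference was 0.44 in larvae (1.36-fold, adjusted p = 0.000104 by limma) and 0.57 in prepupae (1.49-fold, adjusted p = 3.25e-05), SE 0.06. The change of the difference between stages, 0.13 ± 0.08, did not pass (adjusted p = 0.321), and SuUR was the named single-gene transcript that passed at both stages without scaling too (0.59 in larvae and 0.56 in prepupae).

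The transcript of sle, a gene for a nucleolar protein needed in the developing brain, was lower in Samarkand at both stages. The larval values were 13.50, 13.46 and 13.42 in Oregon-R and 12.98, 13.10 and 12.96 in Samarkand, and the prepupal values 13.49, 13.45 and 13.57 against 13.17, 13.21 and 13.22. The strains did not overlap at either stage, with differences of -0.44 (adjusted p = 5.36e-05 by limma) and -0.30 (adjusted p = 0.00156), SE 0.05. Without scaling the differences were -0.16 and -0.23 and neither passed (adjusted p = 0.326 and 0.354). With replicate number added to the fit as a block, the prepupal difference did not pass (adjusted p = 0.058).

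LanA encodes the alpha chain of laminin, a protein of basement membranes. It read 13.04, 12.97 and 13.04 in Oregon-R larvae against 13.27, 13.19 and 13.21 in Samarkand larvae, and 13.08, 12.98 and 13.16 in Oregon-R prepupae against 13.19, 13.25 and 13.29 in Samarkand prepupae. The groups did not overlap, but the differences were small, 0.20 in larvae (adjusted p = 0.0105 by limma) and 0.17 in prepupae (adjusted p = 0.0413), SE 0.05. The prepupal call was the weakest among the named transcripts and was lost under 16 of the settings and omissions tried, among them each stage fitted alone (adjusted p = 0.189) and the omission of any 1 array other than Oregon-R prepupa replicate 5 and Samarkand prepupa replicate 1 (0.0514 to 0.153). The larval call was lost without Samarkand larva replicate 2 (adjusted p = 0.0507).

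Fatp1, which encodes a protein that takes up and activates fatty acids, had the largest larval difference among the named single-gene transcripts that passed. It read 11.97, 11.86 and 12.01 in Oregon-R larvae and 12.66, 12.36 and 12.72 in Samarkand larvae, with no overlap. In prepupae it read 11.34, 10.99 and 11.23 in Oregon-R and 11.34, 11.18 and 11.25 in Samarkand, which overlapped. The difference was 0.63 in larvae (1.55-fold, adjusted p = 0.000622 by limma) and 0.07 in prepupae (adjusted p = 0.735), SE 0.10. The change between the stages was -0.56 ± 0.15 (adjusted p = 0.0303), and it missed the threshold under 13 of the settings and omissions tried, with adjusted p up to 0.269 without scaling. Among these were the omissions of Oregon-R larva replicates 2 and 3, Oregon-R prepupa replicates 2 and 5, Samarkand larva replicates 2 and 4 and Samarkand prepupa replicates 2 and 3, 1 at a time (adjusted p from 0.0556 to 0.0866).

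CG31178 and rdx were lower in Samarkand larvae. CG31178 read 11.92, 12.03 and 11.99 in Oregon-R larvae and 11.37, 11.56 and 11.44 in Samarkand larvae, a difference of -0.52 (1.43-fold, SE 0.07, adjusted p = 0.000122 by limma), while the prepupal values of 12.10, 12.20 and 12.11 and of 11.91, 12.14 and 11.99 overlapped (-0.12, adjusted p = 0.254). Its change between stages was 0.40 ± 0.10 (adjusted p = 0.0206), which missed the threshold without scaling (0.27, adjusted p = 0.66), with median centring (0.36, adjusted p = 0.0536), with a replicate block (0.0898) and without Oregon-R larva replicate 3 (0.0625), Samarkand larva replicate 2 (0.0644) or Samarkand larva replicate 4 (0.056). The gene rdx encodes the adaptor of a ubiquitin ligase that removes the Hedgehog pathway's transcription factor. It read 13.17, 13.13 and 13.07 against 12.86, 12.91 and 12.90 in larvae, and 13.25, 13.14 and 13.25 against 13.25, 13.18 and 13.30 in prepupae, so the strains overlapped only in prepupae. The larval difference was -0.24 (SE 0.05, adjusted p = 0.00286) and the change between stages 0.27 ± 0.07 (adjusted p = 0.0307). With a replicate block neither passed (adjusted p = 0.0588 and 0.237). Without scaling the larval difference of rdx was 0 to 2 decimals, and its change between stages was 0.06 (adjusted p = 1). With median centring that change was 0.16 (adjusted p = 0.194), and with 24 or 22 arrays in the fit it did not pass either (0.0872 and 0.0508). Nor did it without any 1 of Oregon-R larva replicates 2 and 3, Samarkand larva replicates 2 and 4 and Samarkand prepupa replicates 1 and 3 (adjusted p from 0.0576 to 0.0902).

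NaPi-III, a phosphate transporter, and His4r, the gene of a histone H4 made outside replication, completed the calls in larvae. NaPi-III read 11.13, 11.12 and 11.07 in Oregon-R larvae and 11.46, 11.39 and 11.39 in Samarkand larvae (0.30, SE 0.09, adjusted p = 0.0197 by limma). His4r read 12.80, 12.97 and 12.94 in Oregon-R larvae and 12.51, 12.68 and 12.56 in Samarkand larvae (-0.32, SE 0.08, adjusted p = 0.00652). Neither overlapped between the strains in larvae, and both did in prepupae, with differences of 0.10 and -0.06. The change of the difference between stages did not pass for either (adjusted p = 0.324 and 0.153), so these calls in larvae only do not show a difference between stages. Without scaling neither larval call held (adjusted p = 0.0981 for NaPi-III and 0.649 for His4r). That of NaPi-III was also lost without Oregon-R larva replicate 5 (adjusted p = 0.0631) or Samarkand larva replicate 2 (0.0714). It did not hold with 24 or 22 arrays in the fit either (adjusted p = 0.0571 and 0.0597). With a replicate block both larval calls were lost (adjusted p = 0.0783 for NaPi-III and 0.0771 for His4r).

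**Figure D3:**
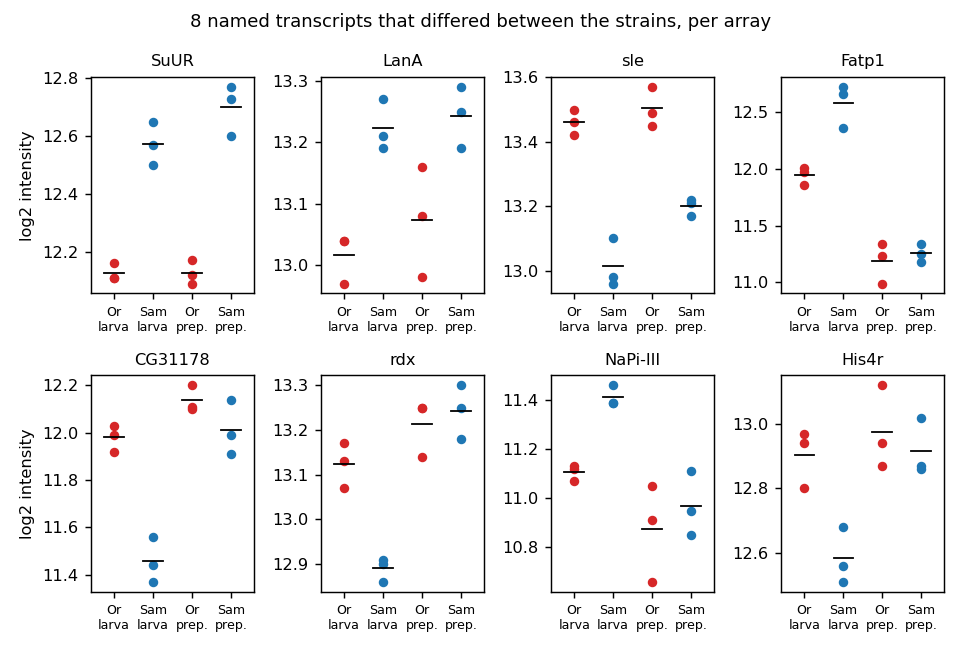
Log2 intensity on each of the 12 arrays for the 8 named single-gene transcripts that differed between the strains at 1 or both stages, Oregon-R in red and Samarkand in blue; points are arrays (3 per group) and the bar is the group mean. SuUR, LanA and sle keep the strains apart at both stages, while the other 5 keep them apart in larvae and overlap in prepupae.

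Of the 8 named transcripts that passed at neither stage, alpha-Spec, the gene of alpha spectrin in the membrane skeleton, had the largest larval difference. It read 11.04, 11.11 and 11.04 in Oregon-R larvae and 11.85, 11.59 and 11.89 in Samarkand larvae, a difference of 0.71 (SE 0.29, adjusted p = 0.0725 by limma) with no overlap. Its prepupal values were 11.05, 10.74 and 10.77 in Oregon-R and 12.16, 10.75 and 10.77 in Samarkand, where replicate 1 stood alone. Without that array the larval difference passed (adjusted p = 0.000219), the prepupal difference was -0.09 instead of 0.37, and the change between stages was -0.81 (adjusted p = 0.00625). The larval difference also passed with each stage fitted alone (adjusted p = 0.00014), with 24 or 22 arrays in the fit (0.025 and 0.0334) and with a replicate block (0.00544). Samarkand prepupa replicate 1 was thus the brighter outlier of its group for both alpha-Spec and FBtr0072463. CG16974 (0.23 in larvae, adjusted p = 0.0637) and fend (0.18 in prepupae, adjusted p = 0.0582) came near the threshold, and CG16974 passed in larvae with median centring (adjusted p = 0.038) and without Oregon-R prepupa replicate 2 (0.024) or 3 (0.00364). Without the first of these arrays fend passed in prepupae (adjusted p = 0.00841), and without the second CG16974 (0.0142) and Uba1 (0.00357) did. Without Oregon-R prepupa replicate 3 the change between stages also passed for CG16974 (adjusted p = 0.00248), Uba1 (0.0222) and NaPi-III (0.0368). The differences of mio and Wdr24, which act in one complex upstream of the growth regulator TOR, were between -0.06 and 0.05, and those of HDAC3, a histone deacetylase, were 0.01 and -0.05. The chromatin remodeller kis read 0.07 and -0.10, and Uba1, the ubiquitin-activating enzyme, 0.00 and -0.17.

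The 28 transcripts with reading frames of several genes lie outside the rule that chose the names above and are described as a group. Their signal cannot be assigned to 1 of their genes. In larvae 16 differed, 8 in each direction, and in prepupae 4 did, 3 higher and 1 lower in Samarkand, against 40.4% and 20.9% of all transcripts. The strains did not overlap for 25 in larvae (69.3% of all transcripts) and for 4 in prepupae (28.6%). At both stages 3 differed in the same direction, 13 passed in larvae only and 1 in prepupae only, against 13.4%, 26% and 6.52% of all transcripts, and 11 passed at neither.

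The transcript of Polr3K, a subunit of RNA polymerase III, and Tcs1 had nearly the same difference at both stages. It read 10.52, 10.48 and 10.51 in Oregon-R larvae and 11.31, 11.35 and 11.29 in Samarkand larvae, and in prepupae 10.53, 10.36 and 10.48 against 11.39, 11.14 and 11.27. The difference was 0.81 at both stages (SE 0.07, adjusted p = 3.93e-06 and 8.38e-06 by limma), and its change between stages was -0.01 ± 0.09 (adjusted p = 0.973). The transcript of CG42488 and CG5116 was lower in Samarkand by as constant an amount, -0.50 and -0.54 (SE 0.06, adjusted p = 4.61e-05 and 4.47e-05). That of CG33995, CG44000 and CG44001 was higher, by 0.40 and 0.50 (adjusted p = 0.00706 and 0.00389). Rad1, of the clamp that senses DNA damage, and Sws1 share the transcript that passed in prepupae only, at 0.19 (adjusted p = 0.0114), where the larval difference was 0.03. The change between stages did not pass for it (adjusted p = 0.137).

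The transcript of CG17325 and CG42305 had the largest difference among all 44 transcripts with gene names. It read 13.38, 13.45 and 13.38 in Oregon-R larvae and 12.28, 12.21 and 12.09 in Samarkand larvae, and in prepupae 11.09, 10.97 and 11.04 against 11.26, 11.08 and 11.20. The strains overlapped in prepupae and not in larvae, and prepupal values were below larval values in both. The larval difference was -1.21 (2.31-fold, SE 0.06, adjusted p = 1.62e-07 by limma) and the prepupal difference 0.15 (adjusted p = 0.123). The change between stages was 1.36 ± 0.09 (adjusted p = 1.17e-05). Here Canton-S larvae at 13.51 were near Oregon-R and Zimbabwe-109 larvae at 11.81 nearer to Samarkand, and both strains had prepupal means of 11.10 and 11.15.

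The change between stages also passed for 3 other transcripts with shared frames. That of CG45089 and ND-MNLL, a subunit of respiratory complex I, was higher in Samarkand larvae by 0.54 and changed by -0.59 (adjusted p = 0.00689 by limma). That of CG42374 and Mettl5, a methyltransferase of ribosomal RNA, was higher by 0.40 and changed by -0.32 (adjusted p = 0.0178). The transcript of PIG-P, of the machinery for membrane anchors, and Tcs6 differed by -0.25 and changed by 0.27 (adjusted p = 0.0358). The other 9 that passed in larvae only had differences from -0.33 (CG10570 and CG42502, and CG30100 and CG42372) to 0.37 (CG45085 and CG8026), and their change between stages did not pass.

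The transcripts that passed in larvae only formed the largest class, 1896 higher and 2436 lower in Samarkand. The higher ones had a median difference of 0.37 in larvae and 0.02 in prepupae, and for 170 the strains were at least 2-fold apart. The lower ones had medians of -0.25 and -0.06, and 16 were at least 2-fold apart. The test of stage dependence passed for 940 of the higher ones (49.6%) and for 419 of the lower ones (17.2%), against 11.9% of all transcripts. Of all transcripts higher in Samarkand larvae, called or not, 17.9% passed it, and of all lower ones 7.1%. Larval and prepupal differences enter both that test and the sorting, so these shares describe the class and are not a separate test of it.

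FBtr0073330 led the higher transcripts. It read 11.83, 11.46 and 12.02 in Oregon-R larvae and 14.28, 13.86 and 14.25 in Samarkand larvae, and in prepupae 11.07, 11.05 and 11.08 against 11.29, 11.09 and 11.25. The larval difference was 2.36 (5.13-fold, SE 0.14, adjusted p = 4.16e-07 by limma), with no overlap. The prepupal values did not overlap either, but the difference of 0.14 did not pass (adjusted p = 0.538), and the change between stages was -2.22. Canton-S went from 14.42 in larvae to 11.00 in prepupae and Zimbabwe-109 from 13.61 to 11.62, so Oregon-R larvae had the lowest mean of the 4 strains.

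FBtr0074361 was next, at 9.58, 9.57 and 9.52 in Oregon-R larvae and 11.74, 11.58 and 11.90 in Samarkand larvae. The difference was 2.18 (4.53-fold, SE 0.08, adjusted p = 7.01e-09 by limma). In prepupae both strains were at the level of Oregon-R larvae, 9.35, 9.52 and 9.33 against 9.34, 9.38 and 9.36, and the change between stages was -2.22. Zimbabwe-109 had 9.48 in larvae and 9.49 in prepupae, as Oregon-R did, and Canton-S had 11.35 and 9.44, as Samarkand did.

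Among the lower transcripts, FBtr0072090 read 12.29, 12.48 and 12.74 in Oregon-R larvae and 10.22, 10.12 and 10.15 in Samarkand larvae. The Samarkand larvae were at the prepupal level, which was 10.21, 10.51 and 10.24 in Oregon-R and 10.18, 10.32 and 10.21 in Samarkand. The larval difference was -2.34 (5.07-fold, SE 0.11, adjusted p = 8.36e-08 by limma) and the change between stages 2.26. Canton-S and Zimbabwe-109 larvae, at 13.29 and 13.09, were above both. FBtr0083460 read 13.03, 13.14 and 13.07 in Oregon-R larvae and 10.81, 11.38 and 11.23 in Samarkand larvae (-1.93, 3.82-fold, SE 0.15, adjusted p = 2.9e-06), while the prepupae overlapped at means of 10.50 and 10.40. Its change between stages was 1.83. Here Canton-S and Zimbabwe-109 larvae, at 11.55 and 11.54, were nearer to Samarkand larvae (mean 11.14) than to Oregon-R larvae (mean 13.08).

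The transcripts that passed in prepupae only were 655 higher and 430 lower in Samarkand, and few were large, with 4 and 7 at least 2-fold apart. The higher ones had a median difference of 0.07 in larvae and 0.25 in prepupae, and the lower ones of -0.02 and -0.28. The change between stages passed for 116 of the higher ones (17.7%) and 153 of the lower ones (35.6%), against 11.9% of all transcripts. That background was not split by the direction of the prepupal difference. Here too the sorting and the test use the same differences. With each stage fitted alone this class held 152 transcripts, and without scaling 87.

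Within this class FBtr0088161 had the largest excess in Samarkand prepupae. It read 13.48, 13.53 and 13.49 in Oregon-R larvae and 13.28, 13.60 and 13.22 in Samarkand larvae, which overlapped, and 11.23, 10.81 and 10.70 in Oregon-R prepupae against 12.62, 12.17 and 12.22 in Samarkand prepupae, which did not. The prepupal difference was 1.43 (2.69-fold, SE 0.15, adjusted p = 5.3e-05 by limma) and the change between stages 1.56. FBtr0073651 was among the brightest transcripts in larvae, at 15.41, 15.36 and 15.41 in Oregon-R and 15.41, 15.39 and 15.39 in Samarkand. In prepupae it was 13.31, 13.10 and 13.43 in Oregon-R and 14.38, 14.62 and 14.24 in Samarkand, so it was lower than in larvae in both strains and lower still in Oregon-R (1.14, 2.2-fold, SE 0.10, adjusted p = 1.03e-05). The change between stages was 1.13. Zimbabwe-109 prepupae (11.36 for FBtr0088161 and 14.19 for FBtr0073651) and Canton-S prepupae (12.05 and 14.54) lay between the strains or beside Samarkand.

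In the other direction, FBtr0071388 read 12.45, 12.59 and 12.60 in Oregon-R larvae and 12.62, 12.33 and 12.75 in Samarkand larvae. In prepupae it was 12.64, 12.84 and 12.62 in Oregon-R and 11.29, 11.66 and 11.44 in Samarkand, a difference of -1.24 (2.36-fold, SE 0.11, adjusted p = 2.21e-05 by limma) that changed by -1.25 between stages. FBtr0100373 was higher in prepupae than in larvae in Oregon-R, from 10.84, 10.86 and 10.79 to 12.51, 11.80 and 12.33, while Samarkand had 11.05, 10.70 and 10.65 in larvae and 11.00, 11.11 and 11.00 in prepupae. The prepupal difference was -1.17 (2.25-fold, SE 0.15, adjusted p = 0.000262) and its change between stages -1.14. Canton-S had 10.56 in larvae and 12.70 in prepupae, as Oregon-R did, and Zimbabwe-109 had 10.56 and 10.68, as Samarkand did.

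Opposite differences at the 2 stages were found for 155 transcripts, 94 of them higher in Samarkand larvae and lower in Samarkand prepupae, and 61 the other way. All 155 passed the test of stage dependence. The sorting already asks for 2 passing differences of opposite sign, so this follows from the sorting and is not a separate test. The largest was FBtr0083441, which read 12.43, 12.77 and 12.68 in Oregon-R larvae and 11.15, 11.85 and 11.45 in Samarkand larvae, but 10.71, 10.65 and 10.64 in Oregon-R prepupae and 12.07, 11.82 and 11.77 in Samarkand prepupae. The difference was -1.14 in larvae (adjusted p = 0.000134 by limma) and 1.22 in prepupae (adjusted p = 0.00017), SE 0.15, a change of 2.36. FBtr0071579 followed, with 12.56, 12.53 and 12.29 in Oregon-R larvae against 11.19, 11.55 and 11.53 in Samarkand larvae, and 12.07, 11.86 and 11.76 in Oregon-R prepupae against 13.15, 12.92 and 12.92 in Samarkand prepupae. Its differences were -1.04 and 1.10 (SE 0.12, adjusted p = 4.71e-05 and 5.53e-05), a change of 2.14. The strains did not overlap at either stage for either transcript. Canton-S (11.95 and 13.56) and Zimbabwe-109 (11.84 and 13.09) were, like Samarkand, higher in prepupae than in larvae for FBtr0071579. For FBtr0083441 the means of Canton-S (10.74 and 10.41) and Zimbabwe-109 (11.4 and 10.73) were, as in Oregon-R, lower in prepupae than in larvae. The Canton-S values overlapped, at 11.35, 10.64 and 10.23 in larvae and 10.39, 10.39 and 10.43 in prepupae. Both larval means lay nearer to that of Samarkand (11.49) than to that of Oregon-R (12.63).

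The 2 strains outside the comparison, Canton-S and Zimbabwe-109, share no array with it other than through the normalization, and their own stage change was set beside each class. Of all 16637 transcripts, 38.8% were lower in prepupae than in larvae of Canton-S and 36.2% in Zimbabwe-109. Of all transcripts higher in Samarkand larvae, called or not, 62.6% and 59.4% were, and of all lower ones 19.8% and 17.8%. Of the 1896 that were higher in Samarkand larvae only, 90.9% were lower in Canton-S prepupae than larvae and 91.7% in Zimbabwe-109, with median changes of -0.59 and -0.30. Of the 2436 that were lower in Samarkand larvae only, 11% and 9.4% were, with median changes of 0.28 and 0.17. Transcripts higher in Samarkand larvae only were thus mostly ones that both other strains carried at a higher level in larvae than in prepupae, and those lower in Samarkand larvae only mostly the reverse. The first pair of shares was 91.2% and 91.3% with median centring, and 81.2% and 93.7% without scaling, where 29.4% and 66.6% of all transcripts were lower in prepupae. Without scaling, 35.5% and 75.2% of all transcripts higher in Samarkand larvae were. The second pair of shares was 11.4% and 9.9% with median centring. Without scaling it was 12.3% and 28.6% of 220 transcripts, against 9.4% and 38.1% of all transcripts lower in Samarkand larvae. The Canton-S share was then not below that of all lower transcripts.

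Of transcripts higher in Samarkand at both stages, 48.7% were lower in Canton-S prepupae and 42.2% in Zimbabwe-109 prepupae, and of those lower at both stages 21.8% and 18.8%. The second pair was near the 19.8% and 17.8% of all transcripts lower in Samarkand larvae. The first was below the 62.6% and 59.4% of all higher ones. Transcripts higher in Samarkand prepupae only had shares of 19.2% and 15%, and those lower in Samarkand prepupae only 64.2% and 69.1%. Shares of all transcripts by the direction in prepupae were not taken. The only background for these is the 38.8% and 36.2% of all transcripts. The 94 transcripts that were higher in Samarkand larvae and lower in Samarkand prepupae had shares of 92.6% and 88.3%. The 61 that went the other way had shares of 27.9% and 39.3%, above the 19.8% and 17.8% of all lower ones. Across all 16637 transcripts the larval strain difference correlated with the stage change of Canton-S at r = -0.56 and with that of Zimbabwe-109 at r = -0.51. For the prepupal strain difference r was -0.04 and -0.01. Transcripts are not independent replicates, and all arrays were normalized together, so these values are descriptions.

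**Figure D4:**
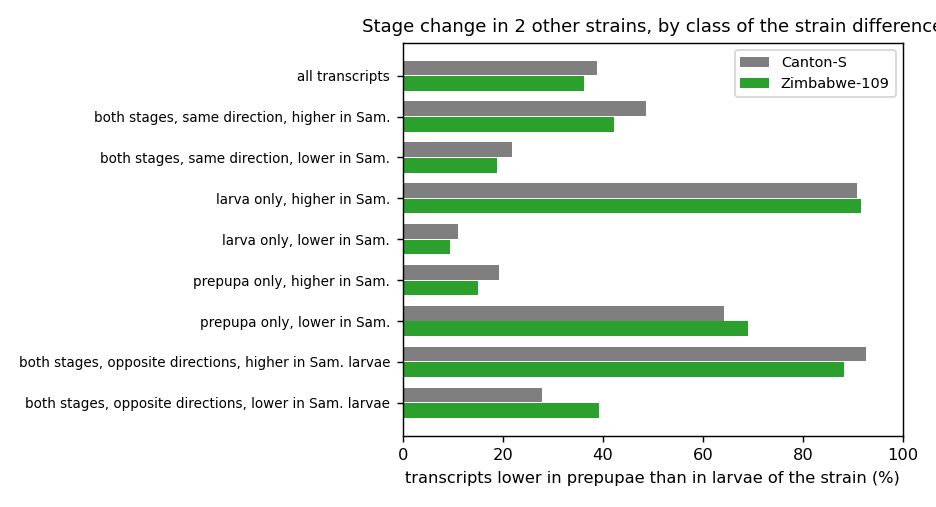
Share of the transcripts of each class (%) that were lower in prepupae than in larvae of Canton-S (grey) and of Zimbabwe-109 (green), strains that do not enter the comparison. Bars start at 0 and carry no error; transcripts higher in Samarkand larvae only reach 90.9% and 91.7%, those lower in Samarkand larvae only 11% and 9.4%, and all transcripts 38.8% and 36.2%. Not drawn are all transcripts higher in Samarkand larvae (62.6% and 59.4%) and all lower ones (19.8% and 17.8%).

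Each array was also placed on the line from the mean of the Canton-S larvae (0%) to the mean of the Canton-S prepupae (100%), over all transcripts. Oregon-R larvae lay at 52.7%, 55.7% and 51.4% (mean 53.2% ± 2.2, SD, n = 3), and Samarkand larvae at 18.8%, 29.4% and 16.1% (21.4% ± 7, n = 3). Every Oregon-R larval array thus lay further along than every Samarkand larval array, by 31.8 percentage points in the mean, with p = 0.1 by a two-sided exact permutation test, the smallest that 3 against 3 arrays allow. Prepupae of the strains overlapped, at 98.6%, 107.8% and 101.9% in Oregon-R and 97.7%, 103.5% and 101.7% in Samarkand, a difference of 1.8 points (exact permutation p = 0.6, two-sided).

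On the line from Zimbabwe-109 larvae to Zimbabwe-109 prepupae, Oregon-R larvae had a mean of 24.9% and Samarkand larvae of -19.8%, a difference of 44.7 points (exact permutation p = 0.1, n = 3). The prepupae differed by 0.9 points (exact permutation p = 1, n = 3). Of the Zimbabwe-109 arrays, prepupa replicate 2 lay at 90.9% on the Canton-S line, against 102.5% and 103.3% for the other 2. Larva replicate 4 lay beside replicate 3 over all transcripts (48.1% and 48.5%, against 29.1% for replicate 1), and was the furthest along when the line was drawn over the transcripts of the strongest Canton-S stage change (33.6%, against 16.4% and 24.7%). With prepupa replicate 2 and larva replicate 4 left out, the larval difference on the Zimbabwe-109 line was 35.5 points and the prepupal difference 0.4. These positions give where an array lies relative to another strain's stage change, not the age of the animals. Strain and the time at which its larvae were taken cannot be told apart, since each strain's larvae carry 1 stage label.

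**Figure D5:**
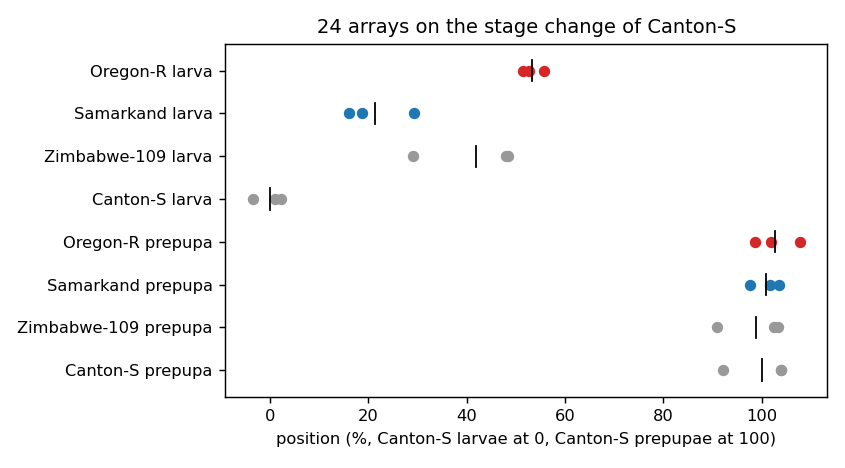
Position of each of the 24 arrays (points) on the line from Canton-S larvae, 0%, to Canton-S prepupae, 100%, with group means as black bars; Oregon-R is red, Samarkand blue and the other strains grey. The Oregon-R larvae lie at 51.4% to 55.7% and the Samarkand larvae at 16.1% to 29.4%, while the prepupae of both strains lie between 97.7% and 107.8%.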

How the data were processed

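Messenger RNA of 24 whole-animal samples was measured on single-colour NimbleGen arrays, and strain, stage and replicate number were taken from the labels. The authors deposited 1 table of linear intensity values for 16637 FlyBase transcripts. The submitters' processing notes name RMA (version not given in the sources used here). As deposited, intensity values are whole numbers with medians from 1936 to 3289 per array, so they were not on a common scale, and background subtraction is unknown.

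Log2 values were quantile normalized over 24 arrays with limma 3.58.1 in R 4.3.3. Means of 4 groups were fitted to 12 arrays with lmFit, leaving 8 residual degrees of freedom, and moderated with eBayes. Contrasts were the strain difference in larvae, in prepupae, and their difference. Tests were two-sided, p-values were adjusted over all 16637 transcripts by the Benjamini-Hochberg method, and the threshold was 0.05. No transcript was filtered out. The standard error is that of the fit. Nothing says more of the replicates than that they are biological, so p-values measure the spread between these samples.

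Names came from a gene table of assembly Release 6, in which 44 identifiers were listed. By rule, all 16 with 1 gene were named. Of the others, the text gives the 2 largest differences per direction in each class, and the 2 opposite ones of largest stage dependence. The members, the classes and the 23 gene lists were chosen with earlier results of these data known. Whether same-numbered replicates of the 2 strains belong together is not given. The correlations of their deviations were 0.18 and 0.10 in larvae and -0.38 and 0.24 in prepupae. Differently numbered pairs ran from -0.1 to 0.12 in larvae and from -0.69 to 0.67 in prepupae, so these values do not decide it. Pairing between stages within a strain was not examined. The fit was also run on simulated data with changes added to Samarkand larvae only. That run checked the estimated larval differences, not the prepupal calls or the sorting. The alternatives were other scalings, background correction, a filter on dim transcripts, other sets of arrays in the fit, each stage alone, trended robust moderation, a replicate block and leaving out each array. No sequences or coordinates are given. The number of arrays limits the precision.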

Additional observations from a re-analysis of the deposited data

Results flagged for a closer look

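The strain difference changed between larvae and prepupae, by limma's test of that change itself (prepupal minus larval difference, adjusted p under 0.05), for 1979 transcripts. Those described in the text include Fatp1 (-0.56), rdx (0.27) and CG31178 (0.40) among the named single-gene transcripts. The transcripts with shared frames were FBtr0071140 (CG45089 and ND-MNLL, -0.59), FBtr0074991 (CG42374 and Mettl5, -0.32), FBtr0081102 (CG17325 and CG42305, 1.36) and FBtr0084974 (PIG-P and Tcs6, 0.27). Among transcripts that differed at both stages in the same direction, FBtr0084287 changed by 0.94 and FBtr0072463 by 1.78. In one strain each (Oregon-R for the first, Samarkand for the second apart from prepupa replicate 1) these 2 lay at the dimmest ranks of the arrays, so the size of their change was not measured.

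Of the transcripts that passed in larvae only, FBtr0073330 and FBtr0074361 each changed by -2.22, FBtr0072090 by 2.26 and FBtr0083460 by 1.83. Of those that passed in prepupae only, FBtr0088161 changed by 1.56, FBtr0073651 by 1.13, FBtr0071388 by -1.25 and FBtr0100373 by -1.14. The opposite differences of FBtr0083441 and FBtr0071579 changed by 2.36 and 2.14. Each transcript given by identifier was picked for the size of its difference, so its change is a description.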

How the results depend on the processing

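Counts are given in the order larvae, prepupae, change between stages, both stages in the same direction, larva only, prepupa only and opposite. Without scaling they were 2730, 607, 398, 513, 2210, 87 and 7, and the gap between strains on the Canton-S line was 22.6 points. With a replicate block over the shared numbers, which are not known to pair the samples, they were 3589, 1432, 642, 978, 2585, 428 and 26. Of these, 153 changes between stages were above 0 and 489 below (23.8% above). The deviations of Oregon-R prepupa replicate 2 and Samarkand prepupa replicate 1 from their group means correlated at 0.67 across transcripts, the highest value among differently numbered pairs. With each stage fitted alone they were 10320 in larvae, 1429 in prepupae, 1213, 9043, 152 and 64. Opposite differences numbered 91 with all 24 arrays in the fit and 102 with 22. Leaving out 1 array gave 4954 to 8291 calls in larvae, 2362 to 4786 in prepupae, 1105 to 4161 changes between stages, 1709 to 2628 at both stages, 2931 to 5272 in larvae only, 580 to 1767 in prepupae only, 73 to 391 opposite, and a gap of 29.2 to 35.8 points. Changes between stages numbered 4161 without Oregon-R prepupa replicate 3. They numbered 1224 and 1149 without Oregon-R larva replicates 2 and 3, 1105 and 1148 without Samarkand larva replicates 2 and 4, and 1163 without Samarkand prepupa replicate 3. The prepupa only class held 1767 without Oregon-R prepupa replicate 3 and 580 without Samarkand prepupa replicate 3. Opposite differences numbered 391 and 73 without those 2 arrays, 85, 88 and 102 without Oregon-R larva replicates 2, 3 and 5, 87 and 94 without Samarkand larva replicates 2 and 4, and 93 without Samarkand prepupa replicate 1. At least 2-fold differences rose with normexp background correction to 463 higher and 175 lower in larvae and 135 higher and 101 lower in prepupae. Among 1037 repeats of the named values, 915 kept direction and call, 60 lost and 19 gained the call, and 43 changed sign, all of these for values that did not pass. The sign changed for rdx in prepupae (-0.00, median centring), Uba1 in larvae (0.16 median centring, 0.32 no scaling, 0.00 normalization over 12 arrays), HDAC3 in prepupae (0.01, no scaling) and mio (0.10 in larvae and 0.01 in prepupae, no scaling). Changes between stages turned without scaling for fend (-0.03), SuUR (-0.03), sle (-0.07) and mio (-0.09), and with the block for mio (-0.05) and Wdr24 (0.04), as did alpha-Spec in prepupae (-0.12). Leaving out 1 array gave prepupal ranges of -0.09 to 0.61 for alpha-Spec, -0.03 to 0.14 for Fatp1, -0.16 to 0.10 for HDAC3, -0.12 to 0.01 for His4r, -0.25 to 0.03 for kis, -0.11 to 0.01 for mio, -0.01 to 0.19 for NaPi-III, -0.01 to 0.06 for rdx and -0.00 to 0.08 for Wdr24. It gave larval ranges of -0.02 to 0.06 for HDAC3 and -0.03 to 0.02 for Uba1, and changes between stages of -0.17 to 0.09 for HDAC3, -0.08 to 0.01 for LanA, -0.05 to 0.07 for mio and -0.05 to 0.03 for Wdr24. The cause was not tested.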
